A study of Mus musculus with 199 samples.

Results

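The libraries compared here were the 14 from a titration of proteinase K in genome architecture mapping (GAM) that carried the titles csc 1 µl and mdc 4 µl. They were chosen by those titles and not by any measured value, and they are 14 of the 199 libraries analysed in the series. Each group held 7 libraries. The csc 1 µl libraries came from plate rows A to G of plate column 1 and the mdc 4 µl libraries from the same rows of plate column 5, so that an effect of the plate column and one of the protease cannot be told apart. All 14 came from 46C mouse embryonic stem cells of strain 129/Ola, a male line, grown with LIF and replated in serum-free clonal grade medium before harvest. Cryosections were 220 nm thick and 4 profiles were dissected into each cap. Lysis took place in 14.5 µl of a mix with 1.4 µl of lysis and fragmentation buffer, for 4 h at 50 °C. In the csc 1 µl group the mix held 13 µl of water and 0.1 µl of proteinase K. In the mdc 4 µl group it held 12.7 µl of water and 0.4 µl of proteinase K. The labels do not spell out csc or mdc, and between the 2 groups the volume and whatever those letters stand for changed together. Among the failed libraries of the same titration were 2 titled mdc 1 µl, of rows B and E, with the water and proteinase K volumes of csc 1 µl. They had 0.0152% and 0.00455% of windows called, and 1 library titled mdc 2 µl had 1.64%. Whether other libraries with these titles met quality control is unknown here, so these values do not describe those volumes as a whole. These libraries were not compared by a test. Each library is a separate cap, but nothing says that the caps came from separate cultures, and p-values therefore measure the spread between caps. Every library belonged to those that failed the authors' quality control, and all comparisons hold among such libraries only.

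GAM measures which stretches of the genome lie in a thin slice of a nucleus. A slice cuts through some chromosome territories and misses others, so a library from a few slices holds stretches of some chromosomes in long runs of neighbouring windows and little of the rest. Proteinase K is a broad serine protease that digests histones and other proteins crosslinked to DNA, and in GAM it frees the DNA of a fixed slice for whole genome amplification. The comparison asks whether recovery of the slices differed between the csc 1 µl and mdc 4 µl conditions.

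The data were calls, 1 or 0, for each 40 kb window of the mm9 genome, where 1 marks a window that the authors called positive at a fixed threshold of 4 reads. Read depth is unknown from these files, and fewer calls can come from less DNA or from fewer reads. The 65983 windows of chromosomes 1 to 19 and X were used. No water control was titled as part of this titration. Of the 11 water controls of the other experiments, 9 had between 0.0530% and 0.476% of windows called and 2 had 21.01% and 21.4%, above each of the 14 libraries compared here. Whether those 2 controls carry the right label was not tested. The 2 libraries of plate row A stood apart from the other 12 in the way their calls were scattered, and results that moved with them are given without them as well. In the 3 µl mdc group of the same titration the row A library had 0.371% of windows called, the lowest of its group. In the 8 µl mdc group it had 0.164%, and the row B library had less, 0.00303%.

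No difference between the csc 1 µl and mdc 4 µl libraries passed the test for any of the 12 measures compared. In both groups the calls lay mostly in runs of neighbouring windows, except in the library of row A, and came from a set of chromosomes that changed from library to library. The tests were two-sided exact permutation tests over all 3432 ways to split the 14 libraries, which cannot give a p below 0.000583, and the Benjamini-Hochberg adjusted p was 0.979 for each of the 12.

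Genome coverage, the share of windows called, was 5.48%, 11.3%, 10.8%, 7.47%, 9.99%, 6.20% and 14.7% in the csc 1 µl libraries of rows A to G. It was 2.85%, 12.7%, 11.8%, 16.3%, 12.7%, 9.87% and 6.63% in the mdc 4 µl libraries of the same rows. The ranges overlapped over most of their length, and the lowest library of each group was that of row A. The mean was 9.43% ± 3.25 (SD, n = 7) with csc 1 µl and 10.4% ± 4.46 (SD, n = 7) with mdc 4 µl. The difference, csc minus mdc, was -0.983 percentage points with a 95% interval from -5.52 to 3.63 (exact permutation test, p = 0.647). A csc 1 µl library had the higher coverage in 19 of the 49 possible pairs. Without row A the means were 10.1% ± 3.00 and 11.7% ± 3.24 (SD, n = 6 in each group), and the exact permutation p was 0.396. Without the mdc 4 µl library of row D alone, the difference was 0.00729 points. The interval gives the differences that the test did not reject.

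**Figure D1:**
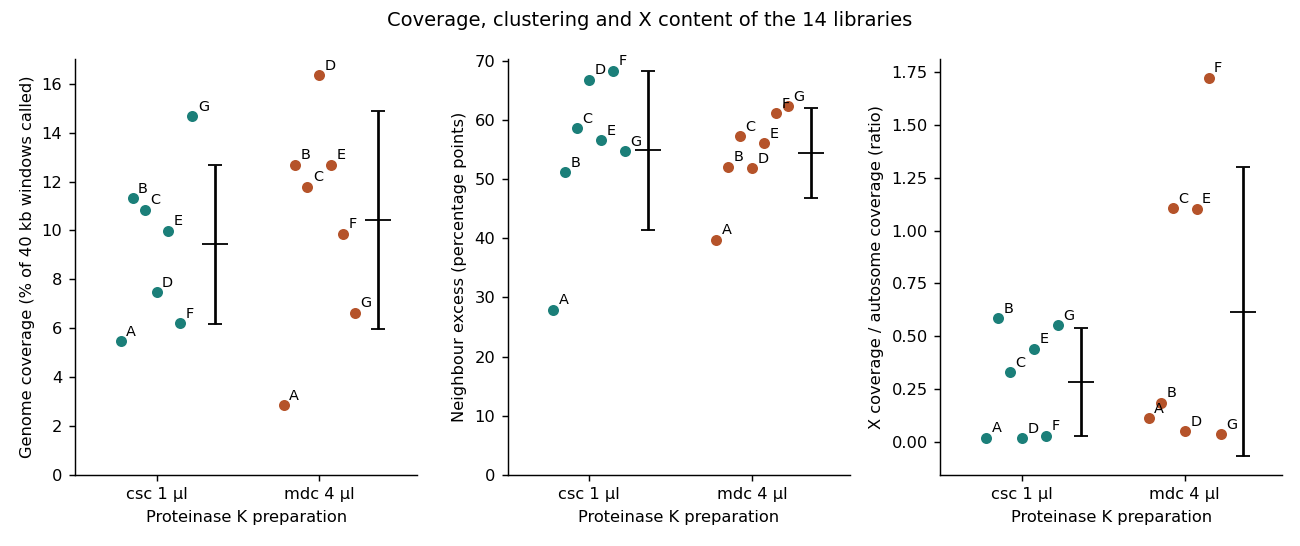
Genome coverage (% of 40 kb windows), neighbour excess (percentage points) and the ratio of X to autosome coverage in the 7 csc 1 µl and 7 mdc 4 µl libraries. Each point is a library marked with its plate row, and the black mark and bar give the group mean ± SD. The groups overlap in all 3 measures, the row A libraries have the lowest coverage and neighbour excess of their group, and the 3 ratios above 1 are all from mdc 4 µl.

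Called windows clustered along the chromosomes in all 14 libraries. The neighbour excess is the share of called windows with a called neighbour, less the share that calls placed at random at the same coverage would give. It was 27.9, 51.2, 58.7, 66.9, 56.6, 68.4 and 54.7 percentage points in the csc 1 µl libraries of rows A to G. In the mdc 4 µl libraries it was 39.8, 52.1, 57.3, 51.9, 56.1, 61.1 and 62.4 points. Row A was lowest in both groups, and the other 12 libraries lay between 51.2 and 68.4 points. The means were 54.9 ± 13.4 and 54.4 ± 7.59 points (SD, n = 7 each), a difference of 0.503 points with a 95% interval from -12.3 to 12.3 (exact permutation p = 0.940). It was -1.93 points without the mdc 4 µl library of row A alone. Without row A the means were 59.4 ± 6.85 and 56.8 ± 4.39 points (SD, n = 6 each) and the exact permutation p was 0.457.

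Run lengths did not differ detectably. Mean run length was 87.4 ± 17.9 kb with csc 1 µl and 88.7 ± 15.9 kb with mdc 4 µl (SD, n = 7 each), a difference of -1.23 kb with a 95% interval from -20.96 to 18.1 (exact permutation p = 0.872), or -0.700 kb without row A. Its sign turned in 6 of the 14 cases with a single library left out, which ranged from -6.69 kb without the mdc 4 µl library of row A to 4.76 kb without the csc 1 µl library of row A. The longest unbroken run of a library was 320 kb in the csc 1 µl library of row A and between 800 and 1040 kb in the other 6. In the mdc 4 µl group it was 400 kb in row A and between 640 and 1640 kb in the other 6. The longest of all was 1640 kb, in the mdc 4 µl library of row E.

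The row A libraries consisted mostly of windows called alone. Such windows made up 61.4% of the calls of the csc 1 µl library of row A and 54.6% of those of the mdc 4 µl library of row A. In the other 12 libraries their share lay between 18.1% and 27.5%. Runs of at least 200 kb held 2.91% and 7.40% of the calls in the 2 row A libraries and between 22.8% and 41.6% in the others. The csc 1 µl library of row A had 3613 called windows, and the library of row F in the same group, with 4093, had 19.6% of its calls standing alone.

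**Figure D2:**
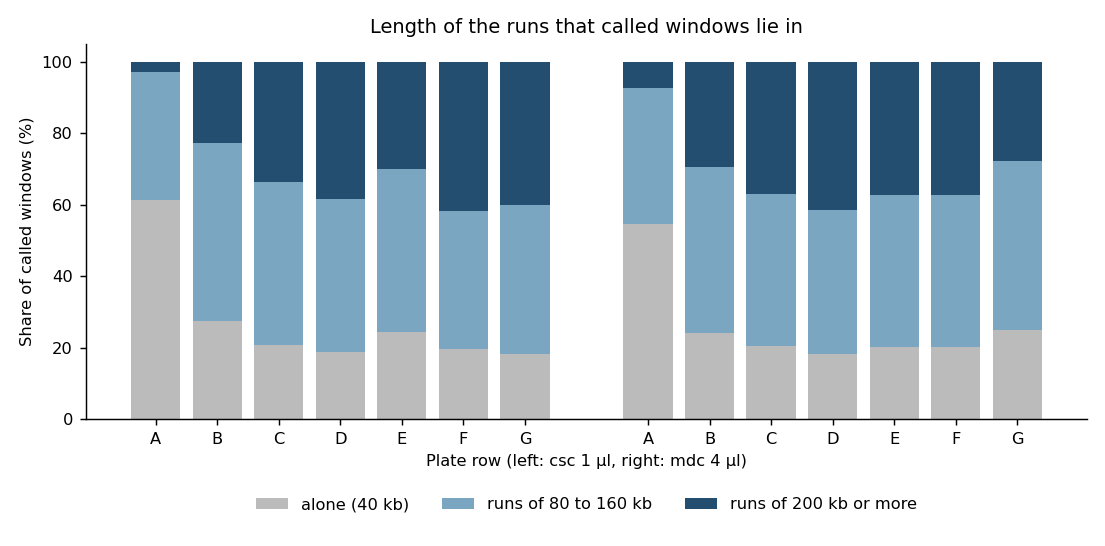
Share of each library's called windows (%, vertical axis) that stood alone, lay in runs of 80 to 160 kb or lay in runs of 200 kb or more, with 1 bar for each library, in plate rows A to G of csc 1 µl (left) and mdc 4 µl (right). Windows called alone are the largest class in the 2 row A libraries, at 61.4% and 54.6%, and 27.5% or less in every other library.

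Called windows were also paired at longer distances. The co-calling excess is the share of called windows whose partner at a given distance was also called, less the genome coverage of the library. At 40 kb its mean was 42.5 points with csc 1 µl and 42.8 points with mdc 4 µl, or 46.7 and 45.6 points without row A. At 400 kb it was 26.5 ± 9.25 and 25.7 ± 6.74 points (SD, n = 7 each), a difference of 0.839 points with a 95% interval from -8.71 to 10.3 (exact permutation p = 0.839), or 1.32 points without row A (exact permutation p = 0.641) and -1.51 points without the mdc 4 µl library of row A alone. At 4 Mb it was 9.59 ± 3.54 and 8.93 ± 3.69 points (SD, n = 7 each), a difference of 0.654 points with a 95% interval from -3.52 to 4.87 (exact permutation p = 0.734), or -0.519 points without the mdc 4 µl library of row A alone. At 10 Mb it was 7.35 and 7.22 points, or 8.25 and 7.87 points without row A. Unequal coverage of whole chromosomes by itself gave 5.42 and 5.53 points of that. Less the coverage of its chromosome in the same library, the excess was 21.1 and 20.2 points at 400 kb, 4.17 and 3.47 points at 4 Mb and 1.93 and 1.69 points at 10 Mb. The group means differed by less than the spread between libraries at each of these distances. The row A libraries lay below the other libraries of their group at 400 kb, with 9.56 and 11.6 points against 20.97 to 36.5 points in the others.

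**Figure D3:**
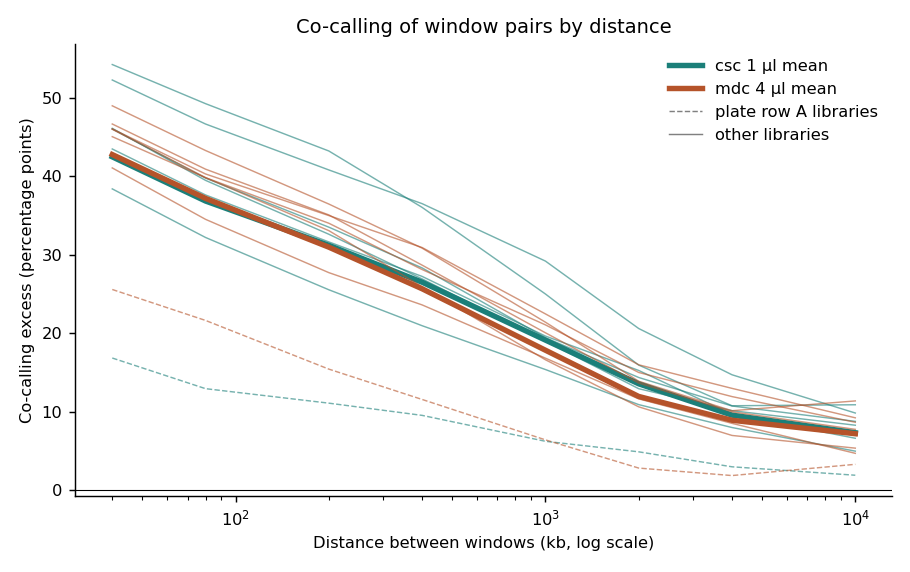
Co-calling excess (percentage points) against the distance between windows (kb, log scale) for the 14 libraries, with thin lines for single libraries, dashed lines for those of plate row A and thick lines for group means. The group means fall together from 42.5 and 42.8 points at 40 kb to 7.35 and 7.22 points at 10 Mb, and the dashed lines lie below the others at every distance plotted.

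Whole chromosomes were nearly missing from single libraries, and which ones differed from library to library. A chromosome had under 1% of its windows called in 26 of 140 combinations of chromosome and library with csc 1 µl and in 23 of 140 with mdc 4 µl. The number of such chromosomes was 2, 1, 3, 7, 4, 8 and 1 of 20 in the csc 1 µl libraries of rows A to G. It was 6, 2, 0, 1, 2, 4 and 8 in the mdc 4 µl libraries. Both groups thus held libraries with nearly every chromosome above 1% and libraries with 8 below it. The cut-off was not scaled to the coverage of the library. In the mdc 4 µl library of row A, at a genome coverage of 2.85%, chromosomes 7 and 8 fell below it with 0.891% and 0.850%. Chromosome 1 was never below 1% in the 14 libraries, whereas chromosomes 13 and X were below it in 6 each.

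At the other end, single chromosomes were covered far above the level of their library. The csc 1 µl library of row G had 39.5% of the windows of chromosome 9 called, at a genome coverage of 14.7%. The mdc 4 µl library of row D had 45.8% of chromosome 12 called, at a genome coverage of 16.3%. The most covered chromosome was a different one in each of the 7 csc 1 µl libraries, and in the mdc 4 µl group it was chromosome 14 in rows E and G and a different one in each of the other 5. The spread among the 19 autosomes of a library, as their SD over their mean, was 75.8% ± 15.6 with csc 1 µl and 75.5% ± 19.1 with mdc 4 µl (SD, n = 7 each). The difference was 0.242 points with a 95% interval from -19.9 to 20.7 (exact permutation p = 0.979), and 3.05 points without row A (exact permutation p = 0.773). It turned in 5 of the 14 cases with a single library left out, to -4.69 points without the csc 1 µl library of row F, and the medians differed by -1.27 points.

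**Figure D4:**
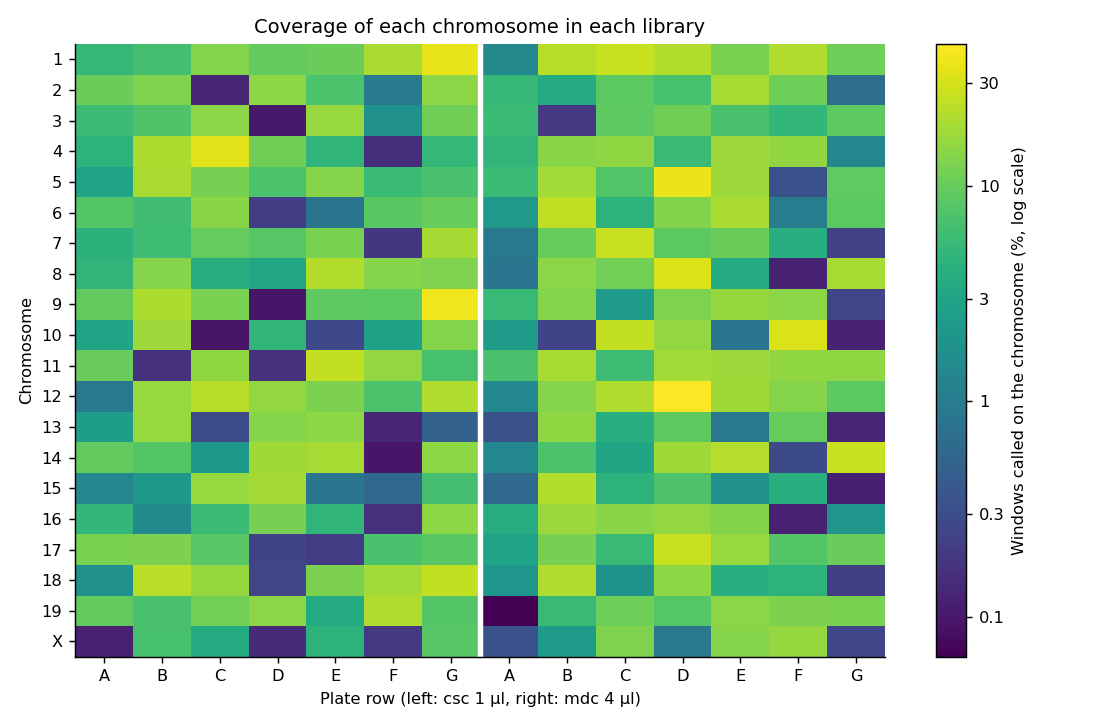
Share of windows called (%, colour on a log scale) on each chromosome (vertical axis) in each library (horizontal axis, plate rows A to G of csc 1 µl on the left and of mdc 4 µl on the right). Dark cells are chromosomes with few of their windows called, 26 of 140 under 1% with csc 1 µl and 23 of 140 with mdc 4 µl, and they lie on different chromosomes in different libraries.

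None of the 20 chromosomes differed between groups in coverage at an adjusted p below 0.05 (0% of the 20 called, exact permutation tests with Benjamini-Hochberg adjustment over the 20), and none at an unadjusted p below 0.05. The lowest unadjusted p was 0.175, for chromosome 18, with a mean of 13.9% with csc 1 µl and 6.97% with mdc 4 µl (n = 7 each, exact permutation test). The values of the groups overlapped for each of the 20 chromosomes. Relative to the coverage of its library, chromosome 18 was at 1.40 ± 0.992 and 0.609 ± 0.558 (SD, n = 7 each; exact permutation p = 0.0903, adjusted p = 0.984 over the 20). On the same scale chromosome 1 was at 1.55 and 1.51 and chromosome 13 at 0.772 and 0.470 in the 2 groups.

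The X chromosome, of which a male cell has a single copy, ranged from nearly absent to above the autosomes. The ratio of X to autosome coverage was 0.0206, 0.585, 0.328, 0.0181, 0.440, 0.0291 and 0.553 in the csc 1 µl libraries of rows A to G. It was 0.111, 0.185, 1.10, 0.0511, 1.10, 1.72 and 0.0374 in the mdc 4 µl libraries. In the csc 1 µl group 3 libraries were below 0.03 and none was above 0.6, and in the mdc 4 µl group 3 libraries were above 1. The mean ratio was 0.282 ± 0.256 with csc 1 µl and 0.616 ± 0.683 with mdc 4 µl (SD, n = 7 each). The difference of -0.334 had a 95% interval from -0.937 to 0.271 and did not pass the test (exact permutation p = 0.247). The medians lay the other way, with a difference of 0.144 (exact permutation p = 1). Without the mdc 4 µl library of row F the difference of the means fell to -0.150.

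Called windows were richer in G and C than the genome in 13 of 14 libraries. Over all windows used, those with genes were called more often than those without in all 14, a count that undetermined windows affect. The GC shift, the mean GC content of called windows less that of all windows, was 0.475 ± 0.271 points with csc 1 µl and 0.631 ± 0.623 points with mdc 4 µl (SD, n = 7 each). The mdc 4 µl library of row F, at -0.194 points, was the only one below 0. The group difference was -0.156 points with a 95% interval from -0.720 to 0.356 (exact permutation p = 0.607). It depended on single libraries. Without row A the means were 0.417 and 0.430 points and the difference -0.0132, and without the mdc 4 µl library of row A alone the difference was 0.0447. It grew to -0.214 points without the csc 1 µl library of row A alone and to -0.293 points without the mdc 4 µl library of row F. With windows split into 5 equal parts by GC content, relative coverage rose from 0.863 in the lowest to 1.20 in the highest part with csc 1 µl and from 0.820 to 1.26 with mdc 4 µl. Without row A it rose from 0.885 to 1.17 and from 0.860 to 1.18.

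Coverage of windows that overlap a protein-coding gene, over that of windows with none, was 1.23 ± 0.119 with csc 1 µl and 1.27 ± 0.273 with mdc 4 µl (SD, n = 7 each). The difference was -0.0412 with a 95% interval from -0.289 to 0.164 (exact permutation p = 0.815). The windows used include 2065 with over 50% undetermined bases, most of them without a protein-coding gene. Of these, 2036 were called in no library. They raise the ratio, so the lowest value, 1.05 in the mdc 4 µl library of row F, does not settle its direction. Without them the group difference was -0.0382 (exact permutation p = 0.815). The highest values were again those of row A, 1.47 with csc 1 µl and 1.87 with mdc 4 µl, and the other 12 libraries lay between 1.05 and 1.30. Without row A the means were 1.19 ± 0.0589 and 1.17 ± 0.0869 (SD, n = 6 each) and the difference changed sign, to 0.0175 (exact permutation p = 0.690). The mdc 4 µl library of row A also had the largest GC shift of all 14, at 1.83 points.

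**Figure D5:**
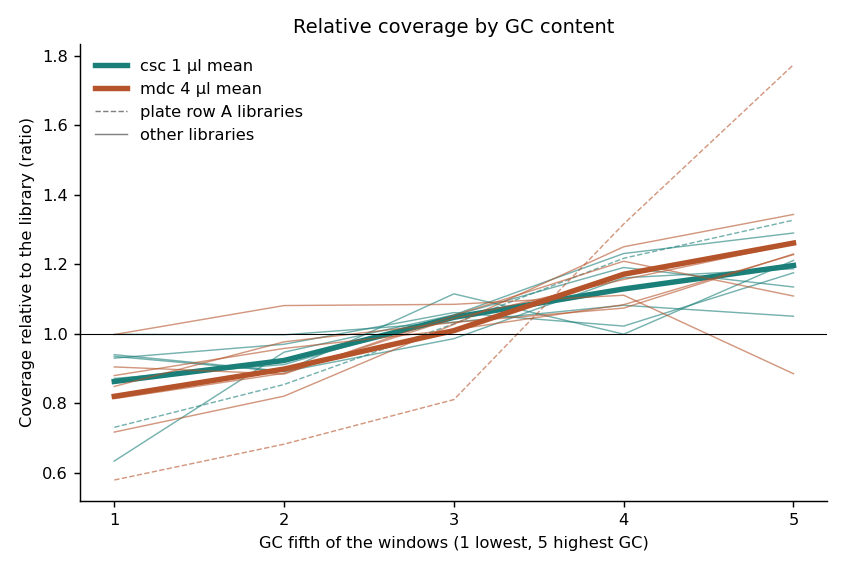
Coverage of windows split into 5 equal parts by GC content, relative to the coverage of the library (ratio, vertical axis), from the lowest GC (1) to the highest (5). Thin lines are single libraries, dashed lines those of plate row A and thick lines the group means, which rise from 0.863 to 1.20 with csc 1 µl and from 0.820 to 1.26 with mdc 4 µl.

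No difference was detected at the ends of the chromosomes. Mouse chromosomes have their centromere at one end, next to the first assembled sequence. Coverage of the first 5 Mb of autosomal sequence past the leading 3 Mb gap, over that of all autosomal windows, was 0.977 ± 0.251 with csc 1 µl and 1.03 ± 0.364 with mdc 4 µl (SD, n = 7 each; exact permutation p = 0.737). The difference was -0.0568 with a 95% interval from -0.414 to 0.305, and it was 0.0452 without the mdc 4 µl library of row B and -0.143 without that of row G. The medians differed by -0.288. For the last 5 Mb the ratios were 1.15 ± 0.208 and 1.13 ± 0.179 (SD, n = 7 each; exact permutation p = 0.887). That difference was 0.0139 with a 95% interval from -0.214 to 0.240, and 0.0850 without row A (exact permutation p = 0.439). It turned in 5 of the 14 cases with a single library left out, to -0.0360 without the csc 1 µl library of row D, and the medians differed by -0.0826.

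Pairs of libraries shared few calls beyond their coverage, whether of 1 group or of both. The phi coefficient, the correlation of the calls of 2 libraries over all windows, had a mean of 0.00950 among the 21 pairs of csc 1 µl libraries and 0.0133 among the 21 pairs of mdc 4 µl libraries. It was 0.0145 among the 49 pairs of different groups, and the highest of all pairs was 0.0513. The mean within groups less the mean between groups was -0.00308 (exact permutation p = 0.335).

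The 7 csc 1 µl libraries together called 49.1% of windows at least once and the 7 mdc 4 µl libraries 52.5%. Of the windows called in either group, 18418 were called in both, which is 56.9% of those of csc 1 µl and 53.2% of those of mdc 4 µl. All 14 libraries together reached 73.6% of windows. Of the 17393 windows that no library called, 2036 consisted of undetermined bases of the assembly to more than 50%. The other 15357 held a mean of 0.164% undetermined bases.

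Single windows were compared by the number of libraries that called them. Of 48590 windows tested with Fisher's exact test, 0 had an adjusted p below 0.05 (0% of windows), and the lowest adjusted p was 1. The smallest p that the test allows with 7 against 7 libraries is 0.000583, from a split of 7 to 0. At that p at least 567 windows would have been needed for any to pass, and more at a higher p. No window was split 7 to 0. At an unadjusted p below 0.05, 2 windows were called more often with csc 1 µl (0.00412% of windows) and 10 more often with mdc 4 µl (0.0206% of windows). The csc 1 µl windows were chr1:51440001-51480000, called in 5 libraries against 0 and without an annotated gene, and chr2:131120001-131160000, called in 6 against 1. The latter overlaps Pank2, a pantothenate kinase gene of coenzyme A synthesis, and Rnf24. The first 3 windows in genome order called more often with mdc 4 µl were chr1:75640001-75680000, without an annotated gene, chr1:137000001-137040000, which overlaps Lgr6, Ptprv and Ptpn7, and chr1:166160001-166200000, which overlaps Slc19a2, a thiamine transporter gene. Each was called in 0 csc 1 µl libraries and 5 mdc 4 µl libraries.

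Most windows were called in few of the 14 libraries, but a handful were called in nearly all. The counts were 21562 windows in 1 library, 15872 in 2, 7549 in 3 and 2686 in 4. Only 15 windows, 0.0227% of all, were called in at least 9 libraries. Of these 15, 14 were called in both water controls of high coverage, against 3225 of all 65983 windows. Of the 15, 1 was called in any of the 9 water controls of low coverage, for which the share over all windows was not computed.

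The windows called in most libraries were chr2:98480001-98520000, in all 14, and 5 windows in 13. The latter were chr6:103560001-103600000, which overlaps Chl1, a neural cell adhesion gene, chr9:3000001-3040000 at the centromeric end of its chromosome, chr9:35080001-35120000, which overlaps Rpusd4 and Gm5614, chrX:139880001-139920000, without an annotated gene, and a window of chromosome 11 that starts at 3080001, again near the centromeric end. The X window was called in 6 of 7 csc 1 µl and 7 of 7 mdc 4 µl libraries, including libraries in which under 1% of X was called.

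Sequence shared between these windows was found by its repeats. In chr9:3000001-3040000 the sequence repeats itself with a period of 234 bases over 54.0% of the window, the length of the unit of mouse major satellite, the repeat of pericentromeric heterochromatin. A unit from this window is shown with the most similar stretch of the chromosome 2 window that all 14 libraries called, both as 5′ to 3′ sequence of mm9. Capitals mark the 13 of 234 bases at which they differ.
chr9:3027538-3027771, plus strand: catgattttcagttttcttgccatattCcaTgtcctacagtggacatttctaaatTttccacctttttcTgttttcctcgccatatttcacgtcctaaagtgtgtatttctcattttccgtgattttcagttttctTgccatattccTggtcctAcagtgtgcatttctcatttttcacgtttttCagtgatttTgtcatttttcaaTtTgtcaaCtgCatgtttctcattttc
chr2:98507210-98507443, minus strand: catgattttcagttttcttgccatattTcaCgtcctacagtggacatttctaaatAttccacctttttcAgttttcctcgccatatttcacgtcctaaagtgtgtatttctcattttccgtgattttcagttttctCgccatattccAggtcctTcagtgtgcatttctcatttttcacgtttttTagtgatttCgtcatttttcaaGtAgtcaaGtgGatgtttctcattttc

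These 2 stretches were identical at 94.4% of bases. Words of 16 bases from the chromosome 9 unit, on both strands and across the junction of units, were counted in every window. At least 1 was found in 1.38% of the 65983 windows, and at least 100 in 6 windows, which is 0.00909% of them. Of these 6, 5 were among the 15 windows called in at least 9 libraries. They were the windows in chromosome 9 that start at 3000001, with 16129 matches and 13 libraries, and at 35080001, with 158 matches and 13 libraries, that in chromosome 2 with 577 matches and 14 libraries, and those of chromosome 11 at 3000001 and chromosome 12 at 3080001, with 9 and 10 libraries. The other one, in X from 72880001, held 377 matches and was called in none of the 14. The X, chromosome 6 and chromosome 11 windows called in 13 libraries held no match. The 5 windows were called in 5 to 7 of 7 csc 1 µl and 4 to 7 of 7 mdc 4 µl libraries.

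Genes of the naive pluripotent state, which mouse embryonic stem cells express, were looked up by the window of their start site. Protein-coding genes as a whole had their start window called in 11.1% ± 3.88 of cases with csc 1 µl and 11.7% ± 4.62 with mdc 4 µl (SD over n = 7 libraries each). The median gene was called in 1 of the 14 libraries, and 79.4% of the 22350 genes were called in at least 1. The 22 pluripotency genes had 16.2% ± 10.8 and 18.8% ± 11.0 of start windows called, a median of 2.5 libraries, and each of the 22 was called in at least 1 library. A call records reads from the locus and not the expression of the gene.

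Stat3, the transcription factor downstream of LIF, was called in 5 of the 14 libraries, 2 csc 1 µl and 3 mdc 4 µl. Klf5, Prdm14 and Tdgf1, 2 transcription factors and a coreceptor of Nodal, were called in 4 each. Nanog, Esrrb, Fgf4, Klf2, Dppa3, Tcl1 and Utf1 were called in 3, and Nr0b1, Nr5a2, Sall4, Tcfcp2l1 and Zfp42 in 2. Pou5f1 and Sox2, the core factors of pluripotency, were called in 1 library each, a csc 1 µl library of row B for Pou5f1 and one of row C for Sox2. Klf4, Myc, Lin28a and Tbx3 were also called in 1. No gene of the list was called in most libraries of either group.

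The 5 other gene lists had group means between 5.71% and 14.3%. Start windows of 16 housekeeping genes were called in 10.7% ± 11.2 of cases with csc 1 µl and 9.82% ± 7.95 with mdc 4 µl, with Gapdh and Tubb5 called in 3 libraries and Eef2 and Ppia in 0. For 17 imprinted genes the means were 12.6% ± 5.29 and 14.3% ± 12.2, with Grb10, a growth-restricting adaptor gene, called in 5 libraries and Ube3a, a ubiquitin ligase gene, in 4, and Gnas and Meg3 in 0. For the 14 genes of the Hox clusters they were 6.12% ± 10.5 and 10.2% ± 9.98, with Hoxa9 called in 3 libraries and Hoxa5 in 2, and Hoxa13 and Hoxd1 in 0. The 20 long neuronal genes had 5.71% ± 4.50 and 11.4% ± 7.48, with Cntnap2 and Dlg2 called in 3 libraries and Csmd1 and Dab1 in 0. The 15 regulators of other lineages had 5.71% ± 5.998 and 12.4% ± 7.13 (SD, n = 7 each, for all 5 lists), with Cdx2 and Nkx2-5 called in 3 libraries and Foxa2 and Gata1 in 0. Cdx2 and Pdx1 share a window and were called in the same libraries. The lists hold few genes, many of them close together, and their values are given as a description without a test.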

How the data were processed

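Calls for 40 kb windows were taken from the deposited table of libraries that failed quality control. According to the methods, the authors aligned reads to mm9 with Bowtie2 (2.1 in the submitters' processing notes), removed duplicates with Samtools and called windows with GAMtools at 4 reads. The deposited values carry no other unit. Chromosome ends equalled those of NCBIM37, whose sequence and GENCODE M1 genes were used. The 2179 rows of other sequences stayed out of the comparisons. Measures, exact permutation tests, 95% intervals (by inverting the test) and Fisher's exact tests were computed with NumPy 2.4.6, SciPy 1.17.1 and pandas 2.3.3, and tested on simulated data. The 5 most often called windows, up to 3 windows per direction with a difference of at least 5 libraries, all pluripotency genes and the 2 most and 2 least often called genes of each other list were named, with ties between windows in the order of the deposited table, which is not by chromosome number, and ties between genes in alphabetical order. The chromosome 11 window called in 13 libraries and the search for repeats were chosen after the values were seen. Tcfcp2l1 was matched by an older symbol, and Kcnq1ot1 and Sox1 had no match. The libraries, lists and tests were chosen with earlier results of these data known. Alternatives left out each library, row A, windows called in at least 2 water controls, windows over 50% undetermined and X, used medians or plate row as a block, or changed a definition, 1 of them (chromosome coverage subtracted from co-calling) after the values were seen.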

Additional observations from a re-analysis of the deposited data

Results flagged for a closer look

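In 7 of 26 groups of values tested, 1 library lay far from the other 6 by Dixon's criterion, which chance meets in about 1 in 20 groups, and all 7 were row A libraries. In the csc 1 µl group these were a neighbour excess of 27.9 points and 61.4% of calls standing alone. In the mdc 4 µl group they were a mean run length of 55.9 kb, a co-calling excess of 11.6 points at 400 kb, a gene window ratio of 1.87, 54.6% of calls standing alone and 7.40% of calls in runs of at least 200 kb. The 7 values are not independent, since most describe the same scatter of calls.

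The mitochondrial window, outside the comparisons, was called in 100% of the csc 1 µl and 100% of the mdc 4 µl libraries, and in 45.5% of the 11 water controls. Chromosome Y had a mean of 0.790% of its 398 windows called with csc 1 µl and 1.40% with mdc 4 µl, against 0.343% in the water controls. All these calls lay in the 68 Y windows with under 50% undetermined bases, of which 4.62%, 8.19% and 2.01% were called. Y calls were present in 4 of 7 libraries in each group, in both water controls of high coverage and in 0 of the 9 of low coverage, so the level in the water controls rests on those 2. The mdc 4 µl library of row C had the most Y calls, 25 of 398, and without it the mdc 4 µl mean was 0.586%, below that of csc 1 µl. The difference between the groups was not tested.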

How the results depend on the processing

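None of the 12 measures passed the test, at an adjusted p below 0.05, in any of 244 alternatives, and none reached an unadjusted p below 0.05, as in the 12 tests of the report. Leaving out 1 library at a time, the difference, csc minus mdc, ranged from -2.24 to 0.00729 points for genome coverage, from -1.93 to 5.00169 points for neighbour excess, from -6.69 to 4.76 kb for mean run length and from -4.69 to 5.47 points for chromosome unevenness. It ranged from -1.51 to 3.67 points for the co-calling excess at 400 kb, from -0.519 to 1.75 points at 4 Mb, from -0.293 to 0.0447 points for the GC shift and from -0.0815 to 0.0577 for the gene window ratio. For the ends of the chromosomes it ranged from -0.143 to 0.0452 on the centromeric and from -0.0360 to 0.0670 on the telomeric side. The X ratio, from -0.431 to -0.150, and the similarity of libraries, from -0.00440 to -0.00133, kept their sign.

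Of the 76 other alternatives, 70 kept the direction and 6 turned it. The difference of medians was -1.27 points for chromosome unevenness, 0.144 for the X ratio, -0.873 points for the co-calling excess at 400 kb, 0.0146 for the gene window ratio and -0.0826 for the telomeric ratio. The gene window ratio also turned without row A, to 0.0175. The cause was not tested. The count of chromosomes with an adjusted p below 0.05 was 0 in each of its alternatives. That of windows was 0 as well, which says nothing of stability, since the test could hardly pass adjustment at this size. With the coverage of the chromosome subtracted in place of that of the genome, an alternative chosen after seeing the data, the difference in co-calling excess was 0.890 points at 400 kb and 0.696 points at 4 Mb. Of the 3539 windows called in at least 2 water controls, 3225 were called in both controls of high coverage.

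Plate rows were not treated as pairs, since the window by window correlation of the deviations of same-row libraries lay between -0.0222 and 0.0236. Row A was the 1 of 7 rows that correlated best with its own, and its libraries were lowest in coverage and neighbour excess in both groups. With the plate row as a replicate block, the difference in genome coverage was -0.983 points (exact sign-flip permutation p = 0.609), and none of the 11 measures tested this way passed. The similarity of libraries and the counts of chromosomes and windows were not run with the block.

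Calls of 0 and 1 hide the read depth, all 14 libraries had failed quality control, and no library that met it was used. With 7 libraries in each group, the 95% intervals given in the report are wide against the differences.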
